A study of Saccharomyces cerevisiae with 6 samples.

Results

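Thiamine (vitamin B1) synthesis and uptake genes of budding yeast were examined for their response to loss of Set2, the histone methyltransferase that modifies lysine 36 of histone H3 on transcribed genes. The 10 genes were chosen by name from the 18646 transcriptional units of the count table. They are the regulators THI2 and THI3, the synthesis genes THI4, THI20, and THI6, the uptake genes THI7, THI72, and PHO3, and THI73 and PET18, whose roles are less settled. RNA was taken from 3 Δset2 and 3 WT samples, each from a separate colony of the laboratory strain W303. The Δset2 cells carried a set2::His3 knockout according to the sample labels, whereas the methods name a KanMX cassette. The WT cells were W303 with SET2 intact. All cultures grew in YPDA, a rich medium with glucose and added adenine, to an optical density of 0.6, and the rRNA-depleted RNA was sequenced as single reads of 76 nt. The supply of thiamine was not varied.

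Yeast makes thiamine by joining a thiazole ring and a pyrimidine ring that are built on separate branches, and it also takes the vitamin up from the medium. Thiamine diphosphate is the form used as a cofactor by pyruvate decarboxylase and related enzymes. When the vitamin is plentiful, the synthesis and uptake genes are repressed. When it is scarce, Thi2 and Pdc2 activate them together with Thi3, which senses thiamine diphosphate.

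Of the 10 genes, THI72 rose in Δset2, by 1.78-fold, and none of the others passed the thresholds in either direction. THI72 encodes a putative plasma membrane transporter related to Thi7. THI7, which encodes the main thiamine transporter, had its 3 highest values in Δset2, although it did not pass the test. Such a separation of the groups, in either direction, held for 27.9% of all tested units. THI6 was likewise higher in all Δset2 samples, and THI20 was lower in all of them. THI4, the thiazole synthase gene and a classic gene repressed by thiamine, was at nearly the same low level in both groups. The regulator gene THI2 had the lowest fold change of the 8 genes that could be tested, and its samples overlapped.

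Total counts ran from 5135226 to 22536840 per sample, and both extremes were Δset2 libraries. The deleted gene SET2 had 20, 9, and 32 reads in Δset2, against 435, 298, and 459 reads in WT. Each unit was tested with edgeR's quasi-likelihood method, and the P values were adjusted by Benjamini and Hochberg's procedure over 5317 tested units. A unit was called when its adjusted P value was below 0.05 and its fold change above 1.5. These thresholds were passed by 190 units, which is 3.57% of those tested, so 1 call among 8 tested thiamine genes says little about the genes as a group. An exact permutation test on 3 against 3 samples could not have given a P value below 0.1 for any gene. Levels are given as CPM, the reads of a unit scaled to library size and composition (TMM normalization). Fold changes are given as log2FC, the log2 of Δset2 over WT, with the standard error (SE).

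Before the levels, it was asked on which bases a read could be counted. Reads that touched more than 1 annotated unit on either strand had been dropped, and each of the 10 genes was overlapped by at least 1 other unit. For 9 of the 10 an overlapping unit lay on the opposite strand, compared with 65.6% of all 6692 protein-coding units. THI4 and THI6 kept most of their length, with 1220 of 1233 nt and 1724 of 1825 nt covered by no other unit. THI20 was counted only from 962 nt after the start of its unit, and THI7 only from 586 nt. PHO3, which encodes a periplasmic acid phosphatase that releases thiamine from its phosphates, lies on chromosome II (YBR092C, 427561 to 429137) wholly inside the unit XUT_2F-177 on the opposite strand. It kept 0 of 1577 nt and had 0 reads in every sample, so it was not measured. THI73 kept 216 of 1929 nt, and the antisense unit SUT247 covered the rest. The unit of THI72 is long, at 4209 nt for a coding sequence of 1800 nt. All of that coding sequence was free of other units, as were 1001 nt upstream and 654 nt downstream, and the reads were not resolved between these stretches.

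**Figure D1:**
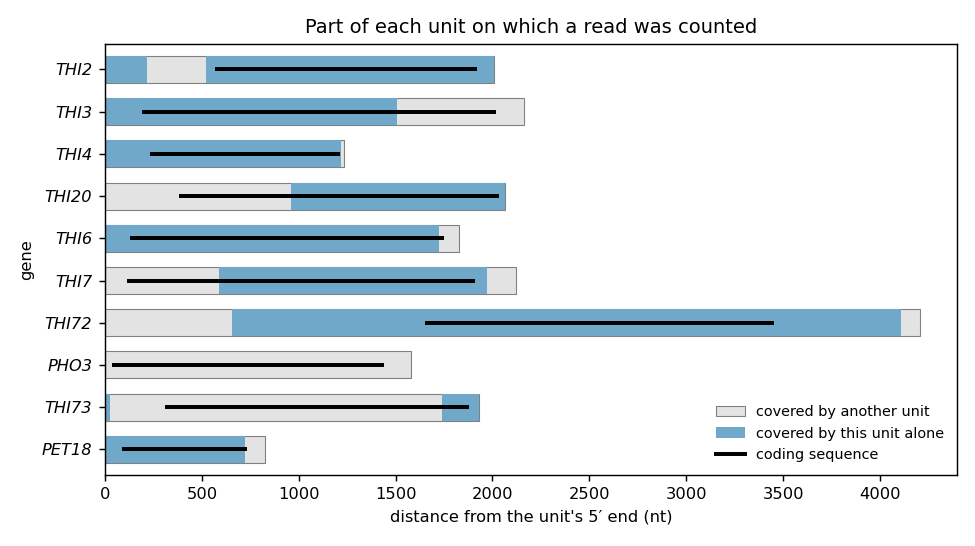
Each bar is the annotated unit of a gene, drawn to scale from its 5′ end (x axis, nt). Blue marks the bases that only this unit covers, grey those shared with another unit, and the black line the coding sequence. PHO3 has no blue base, and THI72 has 3455 of 4209 nt in blue.

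Several of these genes have close relatives, and reads matching more than 1 genomic position had also been removed. The coding sequence of THI72 (chrXV:698768-700567, minus strand) was 84.1% identical to that of THI7 and 83.8% identical to that of NRT1, which encodes the nicotinamide riboside transporter of the same family and is also called THI71. The windows of 76 bases in which they are most alike are printed in the 5′ to 3′ direction of the gene, from the RefSeq R64 assembly, with capitals at the bases that differ. They show how little separates a read of THI72 from a read of THI7 at the closest place, and that a read from the last window would fit THI72 and NRT1 equally and could not be kept.
THI72 (chrXV:699031-699106, minus strand): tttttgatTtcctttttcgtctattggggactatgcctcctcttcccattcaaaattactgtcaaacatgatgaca
THI7 (chrXII:613828-613903, plus strand): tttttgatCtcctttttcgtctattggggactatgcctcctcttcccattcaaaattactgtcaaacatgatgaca
THI72 and NRT1 (chrXV:699198-699273 and chrXV:459907-459982, minus strand): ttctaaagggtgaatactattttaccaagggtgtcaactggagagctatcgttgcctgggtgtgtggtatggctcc

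Such windows were few. Of the 3380 windows of 76 bases on the countable part of THI72, 3349 (99.1%) occurred at a single place in the genome, and 94 (2.78%) came within 2 differences of a window of THI7 or NRT1. For THI7, 60 of 1311 windows (4.58%) came that close to THI72 or NRT1, and 1311 of 1311 were unique. THI20 was more distant from its relatives THI21 and THI22, as 0 of its 1028 countable windows came within 2 differences of either. The closest pair between the coding sequences of THI20 and THI21 is shown for comparison and differs at 6 bases.
THI20 (chrXV:225874-225949, minus strand): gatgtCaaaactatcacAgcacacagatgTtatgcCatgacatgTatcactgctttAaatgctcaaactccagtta
THI21 (chrXVI:54952-55027, minus strand): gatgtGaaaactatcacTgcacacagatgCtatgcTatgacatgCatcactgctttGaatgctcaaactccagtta

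The opposite case was found in the pyrimidine branch outside the 10 genes. THI5, THI11, THI12, and THI13, which encode the pyrimidine precursor synthase, are subtelomeric copies whose coding sequences were between 97.8% and 99.3% identical. The first 76 bases of the THI5 coding sequence, printed here because a read from them could not be assigned to a single copy, occur 4 times in the genome.
THI5 and THI12 (chrVI:12929-13004 and chrXIV:14832-14907, plus strand): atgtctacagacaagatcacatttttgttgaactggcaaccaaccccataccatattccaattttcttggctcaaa

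Unique windows, counted by exact match, made up 26.8% of those of THI5 and 53.5% of those of THI13. The authors' mapping allowed mismatches and reported secondary alignments, so a read that also fitted another copy imperfectly could have been dropped. The share of windows whose reads could be kept may therefore be lower than these values. Near matches were not counted for these genes. These 4 genes had between 0 and 6 reads in any sample, and none passed the filter on low counts. How far expression and how far lost reads set these counts was not tested.

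Among the regulators, THI2 (YBR240C, chromosome II, 700401 to 702409) encodes the zinc cluster activator of the thiamine genes. Its reads numbered 27, 15, and 37 in Δset2, against 34, 37, and 61 in WT. After normalization these were 2.79, 2.99, and 1.62 CPM in Δset2 and 2.90, 3.64, and 4.01 CPM in WT. Δset2 sample 3 was the lowest of the 6, while Δset2 sample 2 lay above WT sample 1. The difference did not pass (log2FC -0.66, SE 0.28, unadjusted P = 0.037, adjusted P = 0.18, edgeR). Without Δset2 sample 3, the deepest library, log2FC was -0.31.

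THI3 (YDL080C, chromosome IV, 310501 to 312661) encodes the cofactor-sensing partner of Thi2 and Pdc2. It had 17.6, 16.7, and 17.8 CPM in Δset2, against 18.3, 16.0, and 19.7 CPM in WT. The Δset2 values lay inside the range of the WT values (log2FC -0.05, SE 0.12, adjusted P = 0.85, edgeR).

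In the thiazole branch, THI4 (YGR144W, chromosome VII, 780166 to 781398) encodes thiazole synthase, an iron-dependent protein that gives up a sulfur of its own and so works only once. Its reads numbered 33, 19, and 65 in Δset2, against 38, 39, and 43 in WT. Scaled to library size, these were 3.41, 3.79, and 2.84 CPM in Δset2 and 3.24, 3.83, and 2.83 CPM in WT. Each group had a low, a middle, and a high sample at almost the same values. The estimate was near 0 (log2FC -0.03, SE 0.22, adjusted P = 0.96, edgeR), and its sign depended on the samples included.

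In the pyrimidine branch, THI20 (YOL055C, chromosome XV, 224391 to 226455) encodes the kinase that phosphorylates the pyrimidine precursor. It had 12.2, 11.8, and 10.3 CPM in Δset2, against 12.6, 12.4, and 15.6 CPM in WT. The Δset2 samples all lay below the WT samples, although the closest values were 12.2 CPM in Δset2 and 12.4 CPM in WT. The difference did not pass (log2FC -0.27, SE 0.14, adjusted P = 0.28, edgeR).

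THI6 (YPL214C, chromosome XVI, 148494 to 150318) encodes the enzyme that joins the rings into thiamine phosphate and also phosphorylates the thiazole. It had 36.3, 38.1, and 34.2 CPM in Δset2, against 27.9, 33.0, and 32.4 CPM in WT. All 3 Δset2 values were above the WT values, by 1.16-fold in the fit, and the gene was not called (log2FC 0.21, SE 0.11, adjusted P = 0.26, edgeR).

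Among the uptake genes, THI72 (YOR192C, chromosome XV, 698013 to 702221, minus strand) was the called one. Its reads numbered 246, 98, and 450 in Δset2, against 148, 119, and 182 in WT. After normalization these were 25.4, 19.5, and 19.7 CPM in Δset2 and 12.6, 11.7, and 12.0 CPM in WT. The WT samples were close together, and even the lowest Δset2 sample was well above them. The means were 21.5 ± 3.33 CPM in Δset2 and 12.1 ± 0.482 CPM in WT (SD, n = 3 each). The rise was larger than the spread between samples (log2FC 0.83, SE 0.13, adjusted P = 0.0065, edgeR). THI72 was called in each of the 13 alternatives, with a log2FC between 0.70 and 0.90 when single samples were left out. The call was closest to the threshold without WT sample 3, at an adjusted P value of 0.049 (edgeR). In RNA from whole cultures, a change in the share of cells that express a gene and a change in RNA per cell cannot be told apart.

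The genes on either side of THI72 were not called. ULS1, whose 3′ end overlaps that of THI72 by 101 nt, gave a log2FC of -0.16 (SE 0.09, adjusted P = 0.30, edgeR). On the other side YOR192C-C, which lies 1767 nt beyond the 5′ end of the unit, gave -0.90 (SE 0.35, adjusted P = 0.15, edgeR). Within the 5′ part of THI72, the units SUT377 and XUT_15F-331 on the opposite strand had 0 reads in all samples, but only 0 and 62 nt of their own on which reads could be counted. Because counting took no account of strand, sense and antisense reads on THI72 cannot be told apart.

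THI7 (YLR237W, chromosome XII, 612255 to 614375) had the most reads of the 10 genes, with 791, 529, and 1655 in Δset2, against 806, 378, and 976 in WT. Normalized, these were 81.6, 105, and 72.4 CPM in Δset2 and 68.8, 37.2, and 64.2 CPM in WT. WT sample 2 stood far below the others and Δset2 sample 2 above them, although the groups did not overlap. The means were 86.5 ± 17.0 CPM in Δset2 and 56.7 ± 17.1 CPM in WT (SD, n = 3 each). The difference did not pass (log2FC 0.59, SE 0.21, unadjusted P = 0.020, adjusted P = 0.13, edgeR), and without WT sample 2 the log2FC was 0.36. The gene upstream, TOP3, whose unit overlaps that of THI7 by 1 nt, was not called either (log2FC 0.72, SE 0.24, adjusted P = 0.10, edgeR).

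**Figure D2:**
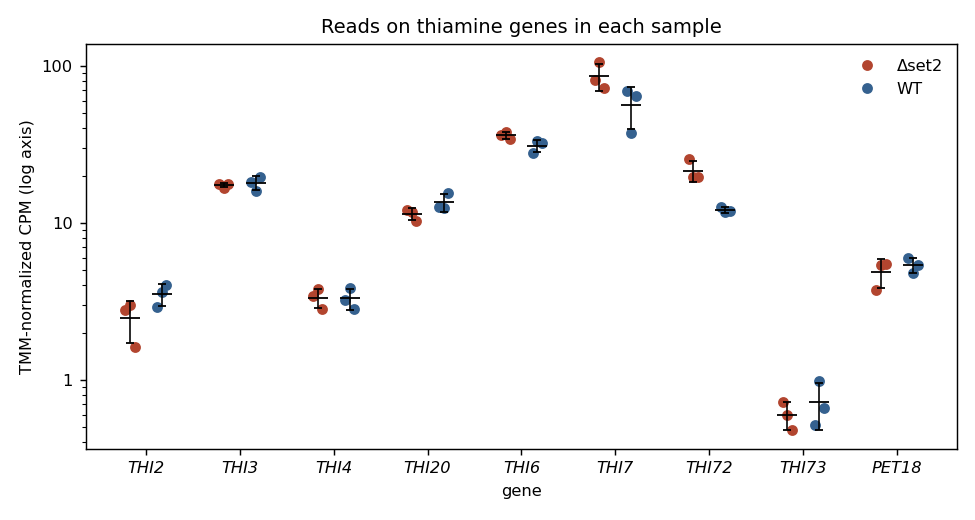
TMM-normalized CPM (y axis, log scale) of the 9 genes with reads, with Δset2 samples in red to the left of WT samples in blue. Points are samples, and black bars show the mean and SD (n = 3). THI72 lies between 19.5 and 25.4 CPM in Δset2 and between 11.7 and 12.6 CPM in WT.

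THI72, THI7, and NRT1 encode related transporters, so their reads were also set against each other within each library, where scaling between libraries plays no part. These ratios were chosen after the values of the genes had been seen and are given as a description, with no test. The reads of NRT1 numbered 193, 114, and 362 in Δset2, against 320, 254, and 431 in WT. There were 1.27, 0.860, and 1.24 reads of THI72 per read of NRT1 in Δset2, against 0.463, 0.469, and 0.422 in WT, a 2.46-fold difference between the geometric means. For THI7 the reads per read of NRT1 were 4.10, 4.64, and 4.57 in Δset2, against 2.52, 1.49, and 2.26 in WT, a 2.17-fold difference. Both differences include a lower level of NRT1 itself in Δset2, which was not called (log2FC -0.50, SE 0.14, adjusted P = 0.063, edgeR). They are therefore larger than the fold changes of THI72 and THI7. The CPM of THI72 and THI7 were higher, and those of NRT1 lower, in every Δset2 sample than in any WT sample. Both ratios to NRT1 therefore had to separate the groups. The ratio of THI72 to THI7 did not separate the groups, at 0.311, 0.185, and 0.272 in Δset2, against 0.184, 0.315, and 0.186 in WT. Summed over the 3 genes, the level was 127, 148, and 108 CPM in Δset2, against 109, 73.8, and 105 CPM in WT, and the groups overlapped.

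**Figure D3:**
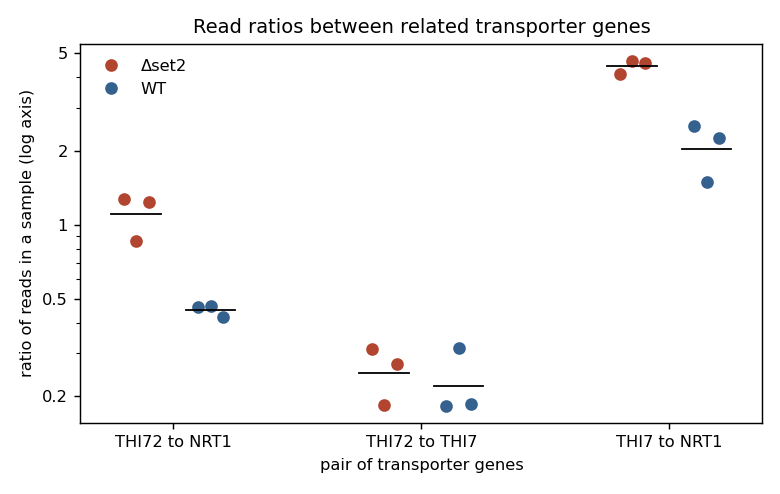
Reads of the first gene per read of the second in each sample (y axis, log scale), for 3 pairs of related transporter genes. Points are samples, with Δset2 in red to the left of WT in blue, and lines are geometric means. THI72 to NRT1 lies between 0.860 and 1.27 in Δset2 and between 0.422 and 0.469 in WT, whereas THI72 to THI7 overlaps.

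Of the genes whose roles are less settled, PET18 (YCR020C, chromosome III, 153920 to 154745) encodes a protein with similarity to thiamine-degrading enzymes. It had 3.71, 5.38, and 5.51 CPM in Δset2, against 5.98, 4.82, and 5.39 CPM in WT. Δset2 sample 1 was low, and the other values were mixed (log2FC -0.14, SE 0.19, adjusted P = 0.72, edgeR).

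THI73 (YLR004C, chromosome XII, 157886 to 159814) encodes a putative plasma membrane permease. Its reads numbered 7, 3, and 11 in Δset2, against 6, 10, and 10 in WT, too few for the filter on low counts. Without that filter the log2FC was -0.30 (SE 0.45, adjusted P = 0.76, edgeR), and a moderate change in either direction was not detectable at this depth.

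Across the 8 tested genes, 3 had a positive and 5 a negative log2FC, and the median was -0.04, compared with -0.00397 over all tested units. For 4 of the 8 genes the Δset2 samples did not overlap the WT samples, with THI6, THI7, and THI72 higher and THI20 lower. Among all tested units this held for 27.9%. At an unadjusted P value below 0.05 there were 3 of the 8 genes (THI2, THI7, and THI72) and 1253 of the 5317 units (edgeR).

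To compare levels between genes, CPM was divided by the length in kb that only the gene's own unit covers. In Δset2 the order was THI7 (62.4 CPM per kb), THI6 (21.0), THI3 (11.5), THI20 (10.4), PET18 (6.72), THI72 (6.23), THI4 (2.74), and THI2 (1.44). In WT it was THI7 (40.9 CPM per kb), THI6 (18.0), THI20 (12.3), THI3 (11.9), PET18 (7.44), THI72 (3.50), THI4 (2.71), and THI2 (2.06). THI20 and THI3 exchanged places, but in WT they differed by less than the SD of THI20 (1.62 CPM per kb). In Δset2 the level of THI72 came within the spread of PET18 (SD 1.38 CPM per kb, n = 3). Of the 3455 countable nt of THI72, only 1800 are coding. Its place in both orders therefore depends on the annotated flanks, and a level over the coding sequence alone was not computed. THI73 had no stable place in this order. Over its 216 countable nt it was at 2.78 CPM per kb in Δset2 and 3.32 in WT, beside THI4. Over the full unit it was at 0.311 in Δset2 and 0.372 in WT, the lowest of the 9 genes with reads. Per 1000 unique read-length windows, of which it has 113, it was at 5.31 CPM in Δset2 and 6.35 in WT, and in WT this was above THI72 (3.61).

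Most of these genes were weakly expressed in this medium. Among 5089 tested protein-coding units, ranked by the WT level per kb, THI2 stood at percentile 1.53, THI4 at 2.42, and THI72 at 3.75. The percentile of THI72 rests on its whole countable length, long flanks included, and could be higher over the coding sequence alone. THI7 was at percentile 67.0, and the other 7 tested genes of the 10 were below the middle of the ranking.

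The other genes of the pathway were taken from lists of named genes. Among 10 further thiamine genes 6 could be tested, and 0 were called in edgeR or in DESeq2, while 5 had an unadjusted P value below 0.05 (edgeR), as did 23.6% of all tested units. NRT1 had the lowest log2FC of this list, at -0.50 (SE 0.14, adjusted P = 0.063, edgeR), and THI21, a relative of THI20, the highest, at 0.41 (SE 0.18, adjusted P = 0.20, edgeR). THI80 encodes the kinase that makes thiamine diphosphate and was singled out after its values had been seen. It had 22.4, 23.5, and 25.4 CPM in Δset2, against 33.4, 36.7, and 30.7 CPM in WT. The groups did not overlap, and THI80 passed on the adjusted P value (0.031, edgeR) but not on size, being 1.40-fold lower in Δset2 (log2FC -0.49, SE 0.11). The pass on the adjusted P value was lost in 5 of the 6 fits without a single sample (adjusted P from 0.061 to 0.13; it was kept without WT sample 2) and with a replicate block (0.15).

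Vitamin B6 is a precursor of the pyrimidine ring in yeast, and 6 of 10 genes for its supply could be tested. SNZ1, which encodes a subunit of the vitamin B6 synthase, rose in Δset2. It had 27.9, 29.7, and 27.7 CPM in Δset2, against 14.1, 18.1, and 14.6 CPM in WT (log2FC 0.87, SE 0.12, adjusted P = 0.0034, edgeR). The partner gene SNO1 had no base of its own and 0 reads. SNZ2, SNO2, SNZ3, and SNO3, the copies that lie beside THI12 and THI5, had between 0 and 21 reads per sample, and of these SNO2 alone was tested and was not called (adjusted P = 0.90, edgeR). Unique windows were not counted for these copies, and how far lost reads set their counts was not tested. The lowest of this list was BUD16, which encodes pyridoxal kinase, with a log2FC of -0.47 (SE 0.13, adjusted P = 0.063, edgeR).

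Of 14 genes for enzymes or complexes that use thiamine diphosphate, 12 were tested, and 2 rose. PDC5, which encodes a minor pyruvate decarboxylase, had 103, 133, and 124 CPM in Δset2, against 68.0, 86.7, and 71.7 CPM in WT (log2FC 0.67, SE 0.13, adjusted P = 0.016, edgeR). PDC1, another decarboxylase gene of the list, was far higher, with means of 22849 CPM in Δset2 and 18158 CPM in WT. It was not called (log2FC 0.33, SE 0.14, adjusted P = 0.19, edgeR). The sequences of PDC1 and PDC5 were not compared, and whether reads of PDC1 were counted for PDC5 was not tested. The peroxisomal gene PXP1 (YEL020C) had 16.7, 18.5, and 21.2 CPM in Δset2, against 11.3, 10.8, and 13.6 CPM in WT (log2FC 0.67, SE 0.14, adjusted P = 0.026, edgeR). The call of PDC5 was lost without WT sample 1 (adjusted P = 0.068), WT sample 3 (0.093), or Δset2 sample 3 (0.10). That of PXP1 was lost without WT sample 1 (adjusted P = 0.092) or Δset2 sample 3 (0.15), and with a replicate block (0.075). KGD1, for a subunit of ketoglutarate dehydrogenase, was the lowest of the list (log2FC -0.22, SE 0.11, adjusted P = 0.24, edgeR).

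Relatives of PHO3 gave no call. PHO5, its tandem neighbour, had no base of its own and 0 reads. PHO12 had a log2FC of -0.24 (adjusted P = 0.56, edgeR), which single WT samples moved to -0.48 (adjusted P = 0.041, without WT sample 2) or -0.014 (adjusted P = 0.99, without WT sample 3). PHO11, at 6 to 29 reads per sample, had a log2FC of 0.00463 (adjusted P = 0.995, edgeR). PHO11 and PHO12 are near-identical copies, so their counts are uncertain. Over the 26 tested genes of these lists that are not among the 10, 3 were called, all higher, against the 3.57% of all units, and their median log2FC was -0.00251. Most calls in the whole table were in that direction, with 151 of the 190 called units higher and 39 lower.

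**Figure D4:**
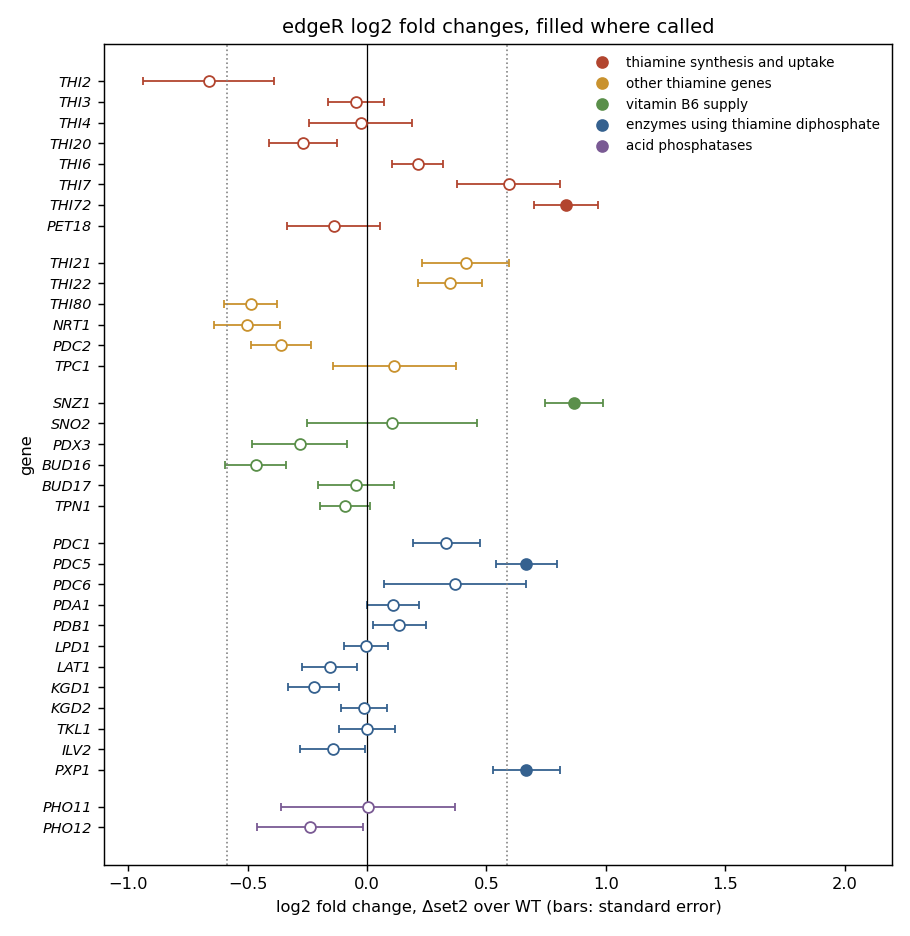
log2 fold change of Δset2 over WT (x axis) for every tested gene of the lists, with bars for the standard error. Filled points were called, open points were not, and dotted lines mark a 1.5-fold change. THI72 at 0.83, SNZ1 at 0.87, and PDC5 and PXP1 at 0.67 are filled, and every filled point lies to the right of 0. Of the 190 units called in the whole table, 151 were higher in Δset2.

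The 8 tested genes did not share a single pattern over the 6 samples. Among their 28 pairs, 13 had a positive and 15 a negative Pearson correlation of log2 CPM, from -0.85 (THI3 with THI4) to 0.85 (THI2 with THI20), with a median of -0.10. These are descriptions over 6 samples that share the genotype contrast and the scaling of each library. The correlation of THI72 with THI7 was 0.69, and 0.07 once the group means had been subtracted, while that of THI2 with THI20 was still 0.73. That of THI2 with THI6 went from -0.15 to 0.78, the highest after subtraction, and the lowest was -0.86 (THI3 with THI4). The median over the 28 pairs was then 0.12.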

How the data were processed

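The authors mapped 76-nt single reads to sacCer3 with TopHat2 2.1.0 (2 mismatches allowed, secondary alignments reported). They removed reads with several genomic positions or a mapping quality under 20. They deposited raw read counts per unit of Ensembl EF4.74 plus noncoding units, counted without strand. Reads overlapping several units were dropped. Libraries came from 200 ng of RNA. The 6 FPKM columns were not used, nor were the authors' DESeq2 columns (mean, fold change, and P values).

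All 18646 units entered edgeR 4.0.16 (R 4.3.3, limma 3.58.1) with filterByExpr, TMM, glmQLFit, and glmQLFTest, without a term for the replicate number. The SE is the absolute log2FC over the root of F. Alternatives were DESeq2 1.42.0, other normalizations and filters, protein-coding units alone, a replicate block, and leaving out each sample. Fits were tested on simulated counts. Sequences, coding spans, and identities (global alignment, biopython 1.88) came from RefSeq R64, which has sacCer3 coordinates, and 10 of 10 genes matched by locus tag. Other steps used Python 3.11.15, numpy 2.4.6, pandas 2.3.3, and matplotlib 3.10.9.

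All 10 genes and their neighbours were eligible to be named, and from each other list the called genes and those with the largest and smallest fold change. PDC1 was named besides, for its high level. The genes and lists were chosen with earlier results of these data known. Samples were separate colonies. Total counts ran from 5135226 to 22536840, so genes with few reads carry counting error besides the spread between samples. PHO10 matched no unit by that name and was not analysed here.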

Additional observations from a re-analysis of the deposited data

How the results depend on the processing

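The number of called thiamine genes was 1, THI72, in each of the 13 alternatives. The number of called units over the whole table was 190, and 190 with DESeq2, but 75 with the replicate number as a block, and between 80 (without Δset2 sample 3) and 373 (without WT sample 2) with single samples left out. The other listed genes gave 3 calls, and between 1 (without WT sample 1 or Δset2 sample 3) and 4 (without Δset2 sample 2, where NRT1 was added). Among log2 fold changes near 0, that of THI4 was 0.021 with the replicate block and ran from -0.14 to 0.12 with samples left out, that of THI3 from -0.12 to 0.0227, that of PET18 from -0.30 to 0.0158, and that of PHO11 from -0.21 to 0.48. PHO11 was also at -0.000157 with DESeq2 size factors and -0.0415 with the block. The block left THI72 at 0.82 (adjusted P = 0.041, edgeR), and the only call it removed among the listed genes was that of PXP1. Samples with the same number did not deviate together, with correlations of -0.32, -0.37, and -0.13 for numbers 1, 2, and 3. With the full unit length, the WT level per kb was 26.7 CPM for THI7, 6.56 CPM for THI20, and 8.32 CPM for THI3, which placed THI3 above THI20, and THI73 moved most, to 0.372 CPM. An alternative chosen after seeing the data, unique read-length windows in place of bases, moved PET18 to 8.30 CPM and THI73 to 6.35 CPM per 1000 windows. Depth limits THI2, THI4, and THI73 most, with at most 65 reads in any sample.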

Other observations

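Of the genes next to the 10 on their chromosomes, 20 protein-coding units were tested and 0 were called by edgeR (5 at an unadjusted P value below 0.05) or by DESeq2. Their log2 fold changes ran from -0.90 to 0.72, and the highest was that of TOP3 beside THI7. XUT_2F-177, the antisense unit across PHO3, had 9, 13, and 27 reads in Δset2, against 10, 12, and 14 in WT (log2 fold change 0.47, SE 0.40, adjusted P = 0.51, edgeR). These reads were counted on 202 nt that no other unit covers, all of them outside PHO3.

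For each tested gene the 5 units with the most similar log2 CPM over the 6 samples were listed. Of these 40 units 0 belonged to the thiamine, vitamin B6, cofactor enzyme, or phosphatase lists, and with Spearman's rho 1 did. Only 8 of the 10 genes and 26 other listed genes were among the 5317 tested units, so such low counts say little. The unit most like THI72 was AIM27 (Pearson r = 0.994), followed by ROG3 (0.994), and that most like THI7 was TBF1 (0.996). These values share the genotype contrast and rest on 6 samples, and nothing is read from these names.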
